A study of Ovis aries with 15 samples.

Results

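The proteasome genes of developing sheep muscle were examined at 5 stages. They were taken as the genes of the bovine genome array whose symbol begins with PSMA, PSMB, PSMC, PSMD, PSME, PSMF or PSMG, in probe sets annotated with no other gene. These were 40 genes with 46 probe sets, of 9155 genes with such a probe set, and where a gene had several, the one brightest on average (mean log2 signal of the 15 arrays) stood for it. All 40 passed the filter on low signals, which required 3 or more arrays with a signal of 50 or above. For 39 of them the signal reached 50 on all 15 arrays, and for PSMB9 on 13. The rule used names only, no measured difference between stages. By role the 40 were 6 genes of the alpha ring and 7 constitutive genes of the beta ring of the 20S core, 3 immunoproteasome subunits, 6 ATPases and 7 non-ATPase subunits of the 19S regulatory particle, 6 assembly chaperones, 3 activators, 1 inhibitor, and PSME3IP1, which fits the rule by name but encodes a protein that binds an activator and is no subunit. Of 50 genes listed for these roles, PSMA2, PSMA8, PSMB11, PSMD3, PSMD7, PSMD8, PSMD12, PSME3, PSMG4 and PSMC3IP had no probe set annotated with them alone in the annotation used, and were not analysed here.

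The muscle was the longissimus dorsi of crossbred Dorset, Suffolk and Rambouillet sheep, sampled in fetuses at 80 d, 100 d and 120 d of development, in newborn lambs in the first days after birth (150 d) and in lambs of 12 weeks (230 d). No stage was sampled between 120 d and 150 d, and a change called at or around birth is one between these stages. Whether it came before birth, at birth or in the days after cannot be told. No animal was treated. Each stage was represented by 3 different animals with 1 array each, so p-values measure the spread between animals, and the study describes the animals as male, apart from 1 female at 100 d and 1 at 120 d. The RNA came from whole muscle, in which fewer cells of a type and less RNA per cell cannot be told apart, and a cattle array may bind a sheep transcript weakly where the sequences differ. The signal is the MAS5 intensity that the authors deposited, on a linear scale.

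The proteasome is the main protease of the cytosol and nucleus. Its barrel-shaped core is built of outer alpha rings, which gate the entrance, and inner beta rings, which hold the peptidase sites. The regulatory particle on its end recognises ubiquitin chains, removes them, unfolds the protein with a ring of ATPases and feeds it into the core. Under interferon, and constitutively in leukocytes, the catalytic beta subunits are replaced by immunoproteasome subunits, which favour the production of peptides for MHC class I. In skeletal muscle the ubiquitin-proteasome system turns over myofibrillar proteins and is known for its part in atrophy and remodelling.

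Facts of the arrays that bear on these genes were as follows. The 2% trimmed mean was 200.1 on every array, so signals are relative to the whole array. Between 120 d and 150 d the median log2 fold change of the 15981 probe sets that passed the filter was -0.15, and changes are given beside it where they are summed over genes. The hybridisation controls lay at a mean log2 signal of 9.76 to 10.25 on the fetal arrays and 10.40 to 11.06 on the postnatal arrays, so a scaling to them lowers the postnatal values against the fetal ones. The 3'/5' ratio of actin was 1.66 to 2.21 at 80 d, 0.933 to 1.14 at 120 d and 0.852 to 0.953 at 150 d. That of GAPDH was 0.990 to 1.22, 1.08 to 1.18 and 1.12 to 1.34 at these stages. The part of these ratios in the results was not tested. Muscle markers with a probe set (7 of 10, among them ACTA1 and CKM) summed to a signal of 57729 to 78579 at 80 d, 81292 to 105177 at 120 d, 119932 to 191771 at 150 d and 192653 to 258791 at 230 d. Among the newborn lambs, replicate 2 had the highest of the 3 signals for 30 of the 40 proteasome genes.

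Every measured gene of the constitutive core and of the regulatory particle had its highest stage mean after birth. Across all stages 17 of the 40 genes differed by the moderated F-statistic of limma at an adjusted p under 0.01, beside 25.9% of all probe sets tested. None of the 40 had its highest stage mean at 120 d, while 19 had it at 150 d and 16 at 230 d. In the constitutive core 12 of 13 genes stood highest at 150 d. In the 13 subunits of the regulatory particle 5 did so at 150 d and 8 at 230 d. The stage of the highest mean was not counted over all probe sets, so these counts have no share beside them.

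**Figure D1:**
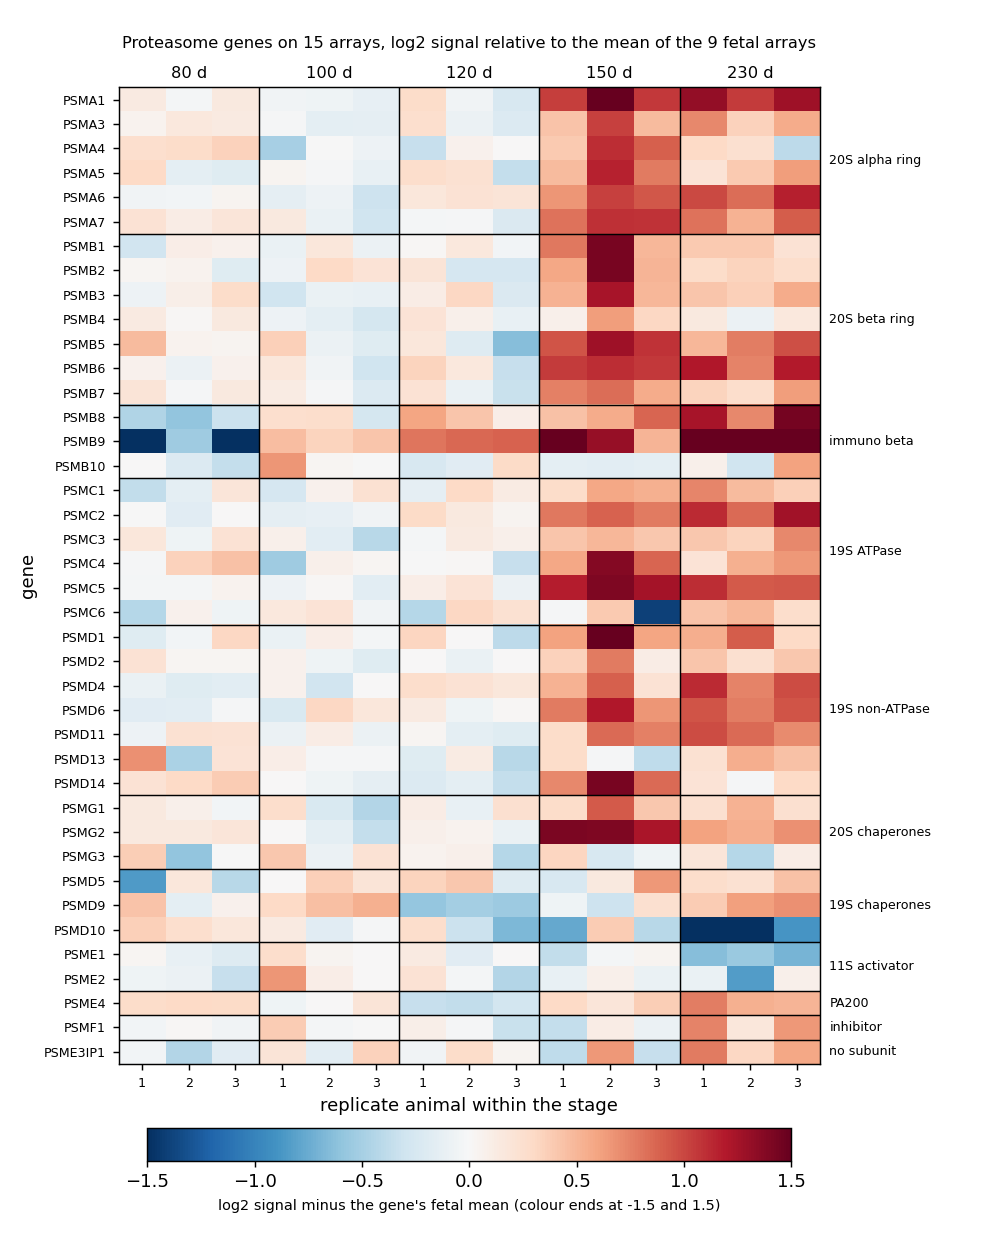
Log2 signal of each of the 40 genes (rows, grouped by role) on each of the 15 arrays (columns, 3 animals per stage), with the gene's mean over the 9 fetal arrays subtracted; red is higher and blue lower, and the colours end at -1.5 and 1.5. The rows of both rings of the core turn red in the 150 d columns, deepest on replicate 2. PSMB9 goes from blue at 80 d to red at 230 d, and PSMD10 turns blue at 230 d.

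Within the fetal period few proteasome genes passed the test. From 80 d to 100 d no proteasome gene passed the limma test, in which 0.125% of all probe sets did, and 2 passed at an unadjusted p under 0.05, PSMB8 and PSMB9, against 8.25% of all probe sets. From 100 d to 120 d again none passed, against 0.0563% of all, and 3 did at an unadjusted p under 0.05 (PSMA6, PSMD9 and PSME4), against 7.45%. The signals of 10 of the 40 did not overlap and were lower at 100 d than at 80 d, against 8.97% of all. Those of 3 were apart and higher, against 10.1%. In that interval the constitutive core had a median log2 fold change of -0.16, with 2 of 13 genes above 0, beside 0.01 for all probe sets. From 100 d to 120 d the core had 0.08, with 9 of 13 above 0, beside -0.04. The 13 constitutive core genes had a median log2 fold change of -0.07 over the whole span from 80 d to 120 d, and the 13 subunits of the regulatory particle -0.05, beside -0.02 for all probe sets. Over that span 1 gene passed, the immunoproteasome subunit PSMB9, against 0.932% of all probe sets called higher.

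The step from the late fetus to the newborn lamb was where proteasome genes rose. Between 120 d and 150 d 5 genes of the core (PSMA1, PSMA6, PSMA7, PSMB5 and PSMB6), 4 of the regulatory particle (PSMC4, PSMC5, PSMD6 and PSMD14) and the assembly chaperone PSMG2 were higher at an adjusted p under 0.01. These were 10 of the 40 genes, against 4.42% of all probe sets called higher, and none was lower, against 6.78% of all. The signals of 25 of the 40 did not overlap and were higher in the newborn, against 14.3% of all probe sets, and 34 of 40 had a log2 fold change above 0, against 42.0%. The median log2 fold change was 0.64 for the 40 genes, 0.86 for the 13 constitutive core genes and 0.66 for the 13 subunits of the regulatory particle, or 0.79, 1.01 and 0.82 above the median of all probe sets. Over the same interval the 7 tested muscle markers had a median log2 fold change of 0.78, all 7 were above 0 and 2 passed (MB and ATP2A1). Their part in the result was not tested. Without newborn replicate 2 the medians of the proteasome genes were 0.53, 0.65 and 0.62 and 5 of the 40 genes passed. Without 120 d replicate 2 or 3, 6 and 4 passed.

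The size of these changes depended on the scaling. With arrays scaled to the hybridisation controls the core median was 0.21, with 12 of 13 genes above 0. That of the regulatory particle was 0.01, with 7 of 13 above 0, while all probe sets had a median of -0.81. None of the 40 genes passed the test under this scaling. At an unadjusted p under 0.05 there were 8, of which 3 were higher, against 2.88% of all probe sets higher. What held under this scaling, under equal medians and as deposited was the distance of 0.79 between the 40 genes and all probe sets, which a shift of whole arrays cannot move. It was 0.49 with quantile normalization and 0.63 without newborn replicate 2. When limma was fitted to the 6 arrays of these stages alone no gene of the 40 passed, and 2 of all probe sets did. In this fit 20 of the 40 had an unadjusted p under 0.05, all higher, against 11.3% of all probe sets higher.

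**Figure D2:**
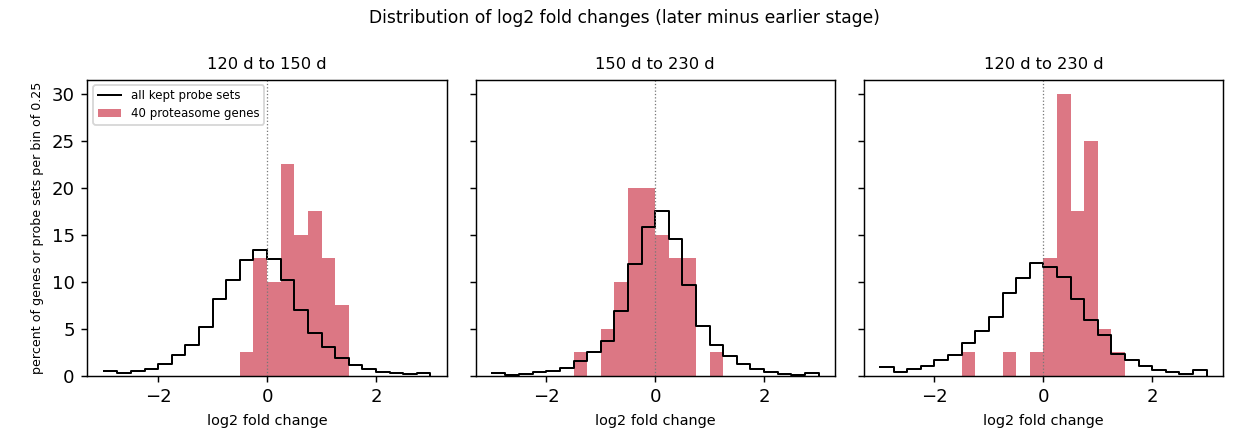
Share of the 40 proteasome genes (bars) and of all 15981 probe sets (line) per bin of 0.25 in log2 fold change, for 3 comparisons; values beyond -3 or 3 are in the end bins. From 120 d to 150 d and from 120 d to 230 d the bars lie mostly to the right of the peak of the line, and from 150 d to 230 d they lie around it.

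The alpha ring, which forms the gate of the core, had a higher mean in the newborn than in the late fetus in each of its 6 measured genes, and 3 of them passed the test. PSMA1 had signals of 955, 758 and 667 at 120 d and 1613, 3125 and 1642 in the newborn, and at 230 d of 1957, 1628 and 1901.5. The newborn values were all above the late fetal ones, and those of the lamb stayed there. PSMA1 rose 2.58-fold from 120 d to 150 d (log2 fold change 1.37, standard error 0.24, adjusted p = 0.0019).

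PSMA7, another alpha subunit, had 5009, 4657 and 4888.5 at 80 d, 4750.4, 4010.3 and 3480.4 at 100 d, 4204, 4226 and 3702 at 120 d, 7554, 9205.5 and 9081 in the newborn and 7582, 6180.3 and 8067 in the lamb. No postnatal value overlapped with a fetal one. It rose 2.13-fold around birth (log2 fold change 1.09, standard error 0.18, adjusted p = 0.0011). PSMA6 had 4172, 4336 and 4244.5 at 120 d, 5897.5, 7605 and 7110 in the newborn and 7399.8, 6637 and 8328 in the lamb, a smaller rise (log2 fold change 0.68, standard error 0.16, adjusted p = 0.0093). The other measured alpha genes, PSMA3, PSMA4 and PSMA5, did not overlap between the stages either, but with log2 fold changes of 0.66, 0.89 and 0.76 their adjusted p lay between 0.021 and 0.035. With quantile normalization the calls of PSMA7 and PSMA6 were lost (log2 fold changes 0.57 and 0.19, adjusted p = 0.034 and 0.42). The PSMA1 call was lost without 120 d replicate 3 (adjusted p = 0.011). That of PSMA6 was lost in 13 of the 15 fits that leave out 1 array, all but those without 150 d replicate 1 or 230 d replicate 3, with log2 fold changes of 0.61 to 0.79 and an adjusted p of up to 0.035.

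In the beta ring, whose subunits PSMB5, PSMB6 and PSMB7 carry the peptidase sites, all 7 constitutive genes had a log2 fold change above 0 around birth and 2 passed. PSMB5, the chymotrypsin-like site, had signals of 1643, 1224.5 and 1217 at 80 d, 1512, 1111 and 1039 at 100 d, 1323, 1033 and 759 at 120 d, 2271, 2847 and 2509 in the newborn and 1664, 2013 and 2302 in the lamb. It was higher on each newborn array than on any fetal one. It rose 2.50-fold (log2 fold change 1.32, standard error 0.24, adjusted p = 0.0022). PSMB6, the caspase-like site, had 3307, 2925 and 2067 at 120 d, 5445, 5658 and 5467 in the newborn and 6021, 4393 and 6012 in the lamb. The 3 newborn animals lay within a narrow range, and the change was 2.03-fold (log2 fold change 1.02, standard error 0.21, adjusted p = 0.0044).

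PSMB7, the trypsin-like site, was just outside the threshold at 2505 ± 488 (SD, n = 3) at 120 d and 4284 ± 424 in the newborn (log2 fold change 0.79, adjusted p = 0.01, above the threshold before rounding). The structural subunits PSMB1, PSMB2 and PSMB3 did not overlap between the stages and had log2 fold changes of 0.86, 0.95 and 0.68, with an adjusted p of 0.014 to 0.042. PSMB4 had the smallest value of the core, 0.28 (95% interval -0.11 to 0.66), and was the only core gene whose signals overlapped. The PSMB5 call was lost without 120 d replicate 3 or 150 d replicate 2. The PSMB6 call was lost without 120 d replicate 2 or 3 or any 1 of the newborn arrays, and with quantile normalization (log2 fold change 0.62, adjusted p = 0.061). Without 1 array the log2 fold changes stayed at 1.11 or more for PSMB5 and 0.83 or more for PSMB6.

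Around birth 2 of the 6 genes of the ATPase ring, the motor that unfolds substrates, rose. PSMC5 had signals of 958, 954 and 1012 at 80 d, 929, 991 and 872 at 100 d, 1046, 1127 and 919 at 120 d, 2199.5, 2585 and 2319 in the newborn and 2109.9, 1850.1 and 1868 in the lamb. All 6 postnatal values were above all 9 fetal ones. PSMC5 rose 2.30-fold (log2 fold change 1.20, standard error 0.15, adjusted p = 0.00027), a call kept in all 15 fits without 1 array.

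PSMC4 had 603, 609.9 and 476 at 120 d, 902, 1575 and 1103 in the newborn and 698, 873 and 950.4 in the lamb, and rose as well (log2 fold change 1.05, standard error 0.25, adjusted p = 0.0099). Its newborn values spread widely, and the call was lost in 13 of 15 fits without 1 array (all but those without 100 d replicate 1 or 150 d replicate 1), with log2 fold changes of 0.83 to 1.24 and an adjusted p of up to 0.043. PSMC2 lay at the threshold (log2 fold change 0.66, adjusted p = 0.01, not under 0.01). PSMC1 and PSMC3 had log2 fold changes of 0.36 and 0.38 without passing. PSMC6 went the other way, from 1081 ± 278 to 917 ± 487 (log2 fold change -0.38, 95% interval -1.18 to 0.43). Newborn replicate 3 stood at 389.9 beside 1012 and 1350 for the others. A second PSMC6 probe set gave 0.45 with values that did not overlap (adjusted p = 0.20), so the probe sets of this gene disagree.

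Of the non-ATPase subunits, 7 of the 11 listed were measured, all with a log2 fold change above 0 around birth. PSMD14, the metalloprotease that cuts ubiquitin chains from the substrate, had signals of 1636, 1738.5 and 1843 at 80 d, 1423, 1354 and 1281 at 100 d, 1222, 1275 and 1104 at 120 d, 2331, 3777.5 and 2538 in the newborn and 1629, 1397 and 1737 in the lamb. It peaked in the newborn, and the lamb values overlapped with those of the 80 d fetus. It rose 2.35-fold around birth (log2 fold change 1.23, standard error 0.19, adjusted p = 9e-04). PSMD6, a scaffold subunit of the lid, had 390.1, 338 and 358 at 120 d, 611, 818 and 559.9 in the newborn and 684.5, 605 and 682 in the lamb. It rose to a level that was held in the lamb (log2 fold change 0.86, standard error 0.19, adjusted p = 0.0074).

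The remaining non-ATPase subunits did not pass. PSMD1 and PSMD11, scaffold subunits of base and lid, had log2 fold changes of 0.93 and 0.73 (adjusted p = 0.032 and 0.015), and PSMD2, the base subunit that docks ubiquitin receptors, 0.44. PSMD4, itself a ubiquitin receptor, had 0.33 and the lid subunit PSMD13 0.12. The PSMD6 call was lost in 9 of 15 fits without 1 array (any of 80 d or 120 d, 100 d replicate 3, or 150 d replicate 1 or 2), with log2 fold changes of 0.69 to 0.97 and an adjusted p of up to 0.030. The call of PSMD14 was lost in none.

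The assembly chaperones differed in what they showed around birth, and 1 of 6 passed. PSMG2, which with PSMG1 guides the building of the alpha ring, had signals of 1946, 1951 and 1993 at 80 d, 1765, 1586 and 1372 at 100 d, 1859.5, 1830.5 and 1647 at 120 d, 4699, 4665.5 and 4118 in the newborn and 2679, 2561 and 2835 in the lamb. The newborn formed a peak, with every lamb value between those of the newborn and those of the fetus. PSMG2 rose 2.53-fold (log2 fold change 1.34, standard error 0.15, adjusted p = 0.00014), which has the smallest adjusted p of the 40 genes in this comparison and was kept in all 15 fits without 1 array. Its partner PSMG1 went from 549 ± 65.7 to 763 ± 188 (log2 fold change 0.45, adjusted p = 0.17), and PSMG3, of a second chaperone pair, from 127 ± 23.6 to 137 ± 28.1 (0.10). The chaperones of the base of the regulatory particle, PSMD5, PSMD9 and PSMD10, had 0.01, 0.50 and -0.02, none past the test.

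**Figure D3:**
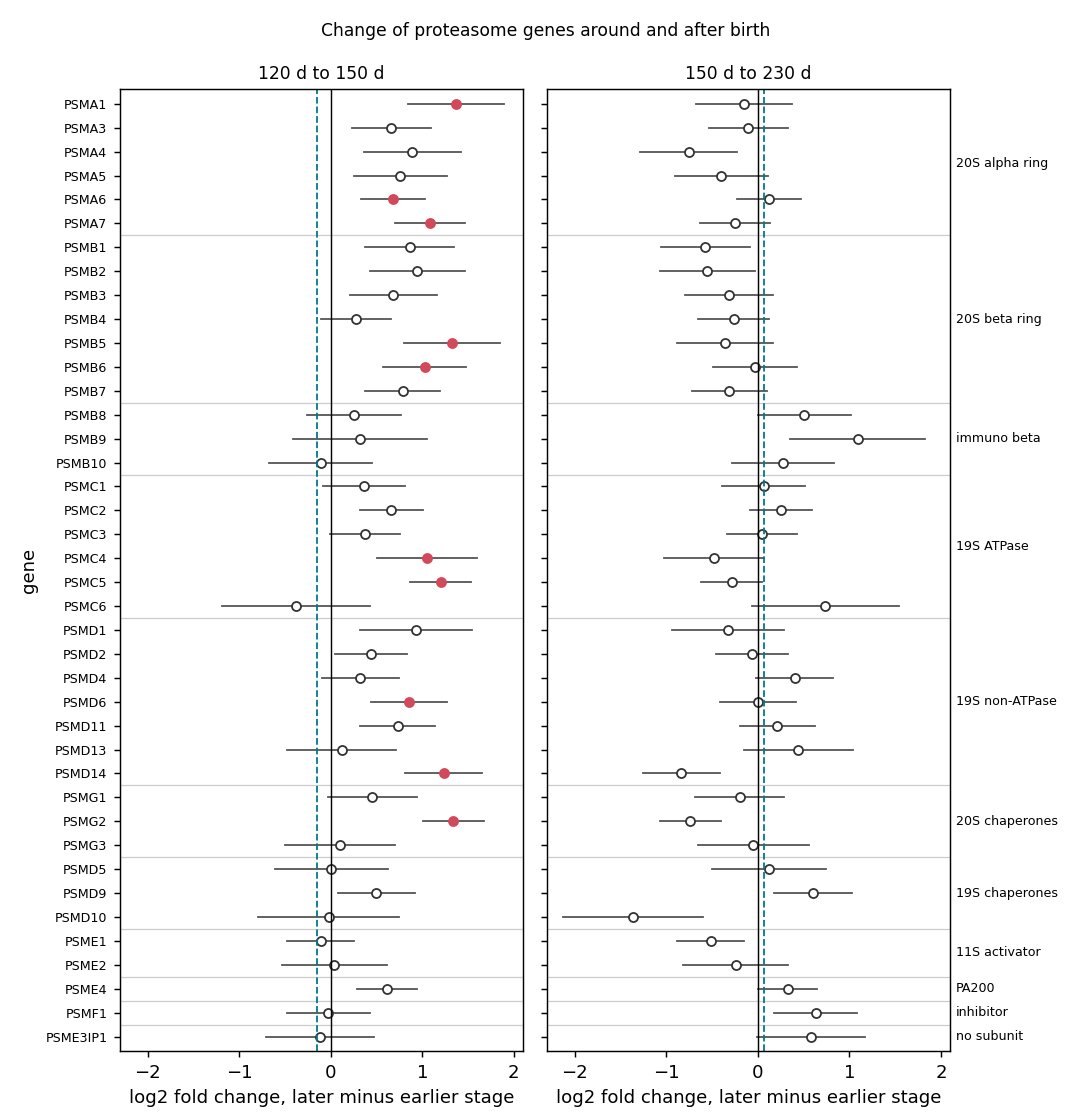
Log2 fold change of each of the 40 genes from 120 d to 150 d (left) and from 150 d to 230 d (right), with 95% intervals from the limma fit; filled red points passed at an adjusted p under 0.01, and the dashed line is the median of all 15981 probe sets (-0.15 and 0.07). The 10 red points are all to the right of 0 in the left panel, and the right panel has none.

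Between the newborn and the lamb no proteasome gene passed the limma test, against 2.03% of all probe sets, and 12 of 40 had an unadjusted p under 0.05, against 22.8%. Of these, 7 were lower in the lamb, against 10.0% of all probe sets. The constitutive core had a median log2 fold change of -0.31 with 1 of 13 genes above 0 (PSMA6), beside 0.07 for all probe sets. The regulatory particle had 0.05, with 8 of 13 above 0. Without newborn replicate 2 the core median was -0.20.

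PSMG2 and PSMD14, which had peaked in the newborn, had the lowest adjusted p of this interval. PSMG2 went from 4494 ± 326 (SD, n = 3) to 2692 ± 137 (log2 fold change -0.74, adjusted p = 0.014) and PSMD14 from 2882 ± 782 to 1588 ± 174 (log2 fold change -0.83, adjusted p = 0.024), both without overlap. With array medians set equal PSMG2 passed, and with a stricter filter or a variance trend both did. PSMA4, PSMB1 and PSMB2 of the core did not overlap either, with -0.76, -0.57 and -0.55 (adjusted p = 0.089, 0.15 and 0.19).

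Set against the late fetus, the lamb had 11 of the 40 genes higher, against 5.81% of all probe sets, and none lower, against 8.43%. Not all of them had been called at 150 d. This comparison shares the 120 d arrays with the one around birth. The signals of 29 of 40 did not overlap and were higher in the lamb, against 18.9% of all. The median log2 fold change was 0.52 for the 40 genes and 1.15 for the 7 tested muscle markers, of which 5 passed as higher. The part of muscle content in this comparison was not tested. In the core PSMA1 (1.22), PSMB6 (1.00), PSMA7 (0.84) and PSMA6 (0.80) passed, and all of them had also passed at 150 d. PSMB5 did not, at 0.96 (adjusted p = 0.011).

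In the regulatory particle PSMD11 (0.95), PSMC5 (0.92), PSMC2 (0.92) and PSMD6 (0.86) were higher in the lamb, with an adjusted p of 0.001 to 0.0059. PSMD11, the lid subunit that clamps the particle to the core, had signals of 1831, 1615 and 1579 at 120 d, 2173, 3241.5 and 3029 in the newborn and 3540.2, 3227 and 2919.8 in the lamb, higher in each postnatal animal than in any of the late fetuses. PSMC2 had 3141, 2851.5 and 2646 at 120 d, 4457, 4758 and 4431 in the newborn and 5573, 4640.2 and 6158 in the lamb. PSMC4 and PSMD14, which rose at birth, were at log2 fold changes of 0.58 and 0.40 in the lamb and did not pass.

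These counts rested on few animals. They were 4 without 120 d replicate 2 or 3 and 5 without 230 d replicate 1 or 3. With arrays scaled to the hybridisation controls none of the 40 passed as higher, and PSMA6, PSMA7 and PSMD6 turned to -0.10, -0.061 and -0.041. The calls of PSMC2, PSMC5, PSMD9 and PSME4 were kept in all 15 fits without 1 array. With quantile normalization the calls of PSMC2 (adjusted p = 0.015), PSMB6 (0.040), PSMA7 (0.12) and PSMA6 (0.13) were lost. When single arrays were left out, the calls of PSMA1 and PSMB6 were lost without 120 d replicate 2 or 3 or 230 d replicate 1 or 3 (adjusted p up to 0.016 and 0.020), and that of PSMA7 without these or 120 d replicate 1 (up to 0.019). That of PSMA6 was lost without any of the 120 d arrays or 230 d replicate 3 (up to 0.013), that of PSMD11 without 120 d replicate 2 or 3 or 230 d replicate 1 or 2 (up to 0.014), and that of PSMD6 without any array of either stage (up to 0.024).

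None of the 3 immunoproteasome subunits passed around birth, while PSMB9 rose within the fetal period and was higher in the lamb than in the late fetus. PSMB9, which takes the place of PSMB6, had signals of 29.5, 59.1 and 26.4 at 80 d, 118, 108 and 115 at 100 d, 149.7, 156 and 158.5 at 120 d, 276, 212 and 123 in the newborn and 506, 299 and 458 in the lamb. The signals were lowest at 80 d, higher at 100 d and 120 d without overlap, and highest in the lamb, with the newborn spread across the late fetal level. From 80 d to 120 d PSMB9 rose at least 3.10-fold (adjusted p = 0.0041), a bound against the signal minimum of 50, since its geometric mean at 80 d was below that. From 120 d to 230 d it rose 2.65-fold (log2 fold change 1.41, standard error 0.34, adjusted p = 0.0089). The first call was lost without 80 d replicate 1 or 3 or any 120 d array (adjusted p up to 0.023), and the second in 10 of 15 fits without 1 array (without 80 d replicate 1, any array of 100 d or 120 d, 150 d replicate 2, or 230 d replicate 1 or 3, up to 0.033). Around birth its log2 fold change was 0.32 (95% interval -0.42 to 1.05).

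PSMB8, which replaces PSMB5, also had its lowest stage mean at 80 d and its highest in the lamb. Its signals were 123, 112 and 134 at 80 d, 200.5, 201.5 and 140.5 at 100 d, 254, 225 and 180.1 at 120 d, 227, 247 and 309 in the newborn and 397, 277 and 456 in the lamb. The stage means were higher at each stage than at the one before, while neighbouring stages overlapped from 100 d on. By the moderated F-statistic PSMB8 differed between stages (adjusted p = 0.0016), as did PSMB9 (adjusted p = 6.1e-05), but no single comparison of PSMB8 passed, with log2 fold changes of 0.82 from 80 d to 120 d (adjusted p = 0.075) and 0.76 from 120 d to 230 d (adjusted p = 0.03).

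PSMB10, which replaces PSMB7, had signals of 177, 152 and 137 at 80 d, 276.5, 178.5 and 174 at 100 d, 148, 156 and 214 at 120 d, 159, 157 and 158 in the newborn and 185, 142 and 267 in the lamb. These overlapped between all neighbouring stages, and the newborn values lay within the 120 d range. No comparison of PSMB10 passed, and its log2 fold change around birth was -0.11 (95% interval -0.67 to 0.45).

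**Figure D4:**
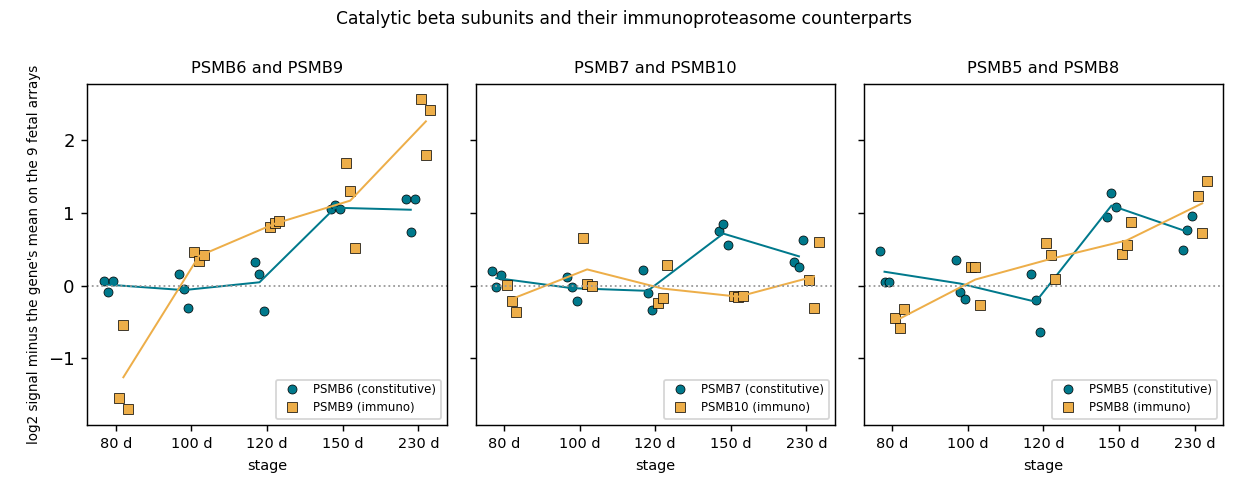
Log2 signal of the 3 catalytic beta subunits of the constitutive core (circles) and of the immunoproteasome subunit that replaces each (squares) on every array, with the gene's mean over the 9 fetal arrays subtracted; lines join the stage means, and levels of different probe sets are not compared. The constitutive genes step up between 120 d and 150 d, PSMB9 and PSMB8 are higher from stage to stage, and PSMB10 stays near its fetal mean.

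Each pair was also compared within the array, where the scaling of arrays cancels. The log2 difference between PSMB8 and PSMB5, with its mean over the fetal arrays subtracted, was 0.43 to 0.74 at 120 d and -0.72 to -0.21 at 150 d, without overlap, and -0.05 to 0.74 at 230 d. It had been -0.92 to -0.37 at 80 d. For PSMB10 and PSMB7 it was -0.46 to 0.62 at 120 d and at most -0.70 at 150 d, again without overlap. For PSMB9 and PSMB6 the ranges overlapped, at 0.47 to 1.23 and -0.54 to 0.64, and the lamb lay at 1.06 to 1.36. With 3 animals against 3, an exact permutation test cannot give a p under 0.10, which is what groups that do not overlap give.

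Leukocyte markers are given beside these subunits because leukocytes carry the immunoproteasome. Of 17 on the list 14 had a probe set, and 9 of these passed the filter. The summed signal of the 14 was 803 to 990 at 80 d, 893 to 1027 at 100 d, 881 to 1024 at 120 d, 768 to 1009 in the newborn and 1164 to 2077 in the lamb. The ranges of the fetal and newborn stages overlapped, while every lamb was above them. From 150 d to 230 d all 9 tested markers had a log2 fold change above 0, with a median of 0.82. Of the 9, 1 passed, against 0.945% of all probe sets called higher. This was CD3D of the T cell receptor complex, which went from 13.2 ± 8.86 in the newborn to 111 ± 49.9 in the lamb, at least 2.09-fold against the minimum of 50 (adjusted p = 0.0024). CD3D had also passed as lower from 120 d to 150 d, where it was at 50.4 ± 12.1 at 120 d, a call lost without 100 d replicate 3, any 120 d array, or 150 d replicate 1 or 3 (adjusted p up to 0.025). From 120 d to 230 d, where PSMB9 was called, 8 of the 9 had a log2 fold change above 0, with a median of 0.64. None of the 9 passed there, against 14.2% of all probe sets. PTPRC, the common leukocyte antigen, did not exceed 30.6 on any array, and CD79A of B cells did not exceed 15.6. The part of such cells in the lamb values of PSMB8 and PSMB9 was not tested. From 80 d to 120 d, where PSMB9 rose, 0 of the 9 passed in either direction, against 1.31% of all probe sets. In that span 6 of the 9 had a log2 fold change above 0, with a median of 0.22, and their part was not tested.

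Of the genes of MHC class I processing and the interferon response, 11 of 16 could be tested, none passed around birth or between newborn and lamb, and 1 was higher in the lamb than at 120 d, against 5.81% of all probe sets. This was B2M, the light chain of MHC class I, with 427 ± 96.3 at 80 d, 896 ± 146 at 120 d, 1170.5 ± 310.3 in the newborn and 2783 ± 127 in the lamb. Like PSMB9 it was highest in the lamb, and its change from 120 d to 230 d held in every fit without 1 array (log2 fold change 1.65, adjusted p = 0.00084). The B2M call was lost with arrays scaled to the hybridisation controls. From 120 d to 230 d 7 of the 11 were above 0, with a median of 0.12 and a smallest value of -1.26. From 80 d to 120 d, where PSMB9 was also called, 9 of the 11 were above 0, with a median of 0.56. None of the 11 passed there, against 1.31% of all probe sets. TAP1, the peptide transporter gene that lies between PSMB8 and PSMB9 in the RefSeq sheep annotation (assembly ARS-UI_Ramb_v3.0), had 50.4 ± 17.8 at 80 d, 97.3 ± 55.4 at 120 d, 86.0 ± 13.1 in the newborn and 164 ± 14.8 in the lamb. The lamb values did not overlap with the newborn ones, but the test was not passed (log2 fold change 0.94, adjusted p = 0.22).

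None of the activators passed around birth, and 1 did by the lamb. PSME1 and PSME2, neighbours in the sheep annotation with only EMC9 between them, encode the interferon-inducible cap that opens the core without ubiquitin. PSME1 had signals of 1431, 1298 and 1226 at 80 d, 1694, 1449 and 1409 at 100 d, 1551, 1249 and 1416 at 120 d, 1093.5, 1377 and 1448 in the newborn and 902, 957 and 866 in the lamb. All lamb values were under all others, opposite to PSMB8 and PSMB9, but the test was missed against 150 d (log2 fold change -0.51, adjusted p = 0.093) and 120 d (log2 fold change -0.63, adjusted p = 0.016). PSME2 had 774, 762 and 637 at 80 d, 1286, 868 and 814 at 100 d, 944, 799 and 599 at 120 d, 754, 857 and 757 in the newborn and 760.3, 456 and 853.5 in the lamb. The last range spanned most of the others, and its log2 fold change around birth was 0.04 (95% interval -0.54 to 0.61).

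PSME4, the single-chain activator of the nucleus, was lowest at 120 d and had risen by the lamb stage. Its stage means were 1320.4 ± 15.6 in the 80 d fetus (SD, n = 3), 1119 ± 104 at 100 d, 859.5 ± 31.0 at 120 d, 1316 ± 83.8 in the newborn and 1651 ± 168 in the lamb. The 120 d values overlapped with no other stage. PSME4 rose 1.92-fold from 120 d to 230 d (log2 fold change 0.94, standard error 0.15, adjusted p = 0.00078), while the change at birth missed the threshold (log2 fold change 0.61, adjusted p = 0.011). PSMF1, an inhibitor of the core in vitro, stayed between 202 and 236 in stage mean up to the newborn and was at 315 ± 63.3 in the lamb (log2 fold change 0.63, adjusted p = 0.094 against 150 d). PSME3IP1 went from 176 ± 77.8 to 251 ± 40.4 without passing.

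Of the base chaperones, PSMD9 had a profile like that of PSME4. Its signals averaged 94.4 ± 19.2 at 80 d, 116 ± 9.72 at 100 d, 58.8 ± 1.25 at 120 d, 81.9, 69.4 and 101 on the newborn arrays and 127 ± 13.6 in the lamb, close to the signal minimum of 50 where it was lowest. It rose 2.15-fold from 120 d to 230 d (log2 fold change 1.11, standard error 0.20, adjusted p = 0.0015).

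PSMD10, known as the oncoprotein gankyrin, had the most negative log2 fold change of the 40 between 120 d and 230 d. Its signals were 618, 575 and 542 at 80 d, 527, 427 and 476 at 100 d, 578.5, 385 and 303 at 120 d, 283, 627 and 361 in the newborn and 123, 117 and 260.3 in the lamb. Each lamb was under each younger animal, by a log2 fold change of -1.39 against 120 d (adjusted p = 0.012). By the moderated F-statistic PSMD10 differed between stages (adjusted p = 0.0062). Without 230 d replicate 3, the highest of the lambs, the change from 120 d to 230 d was -1.76 and passed (adjusted p = 0.0032). PSMD5 did not differ by the F-statistic (adjusted p = 0.29).

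**Figure D5:**
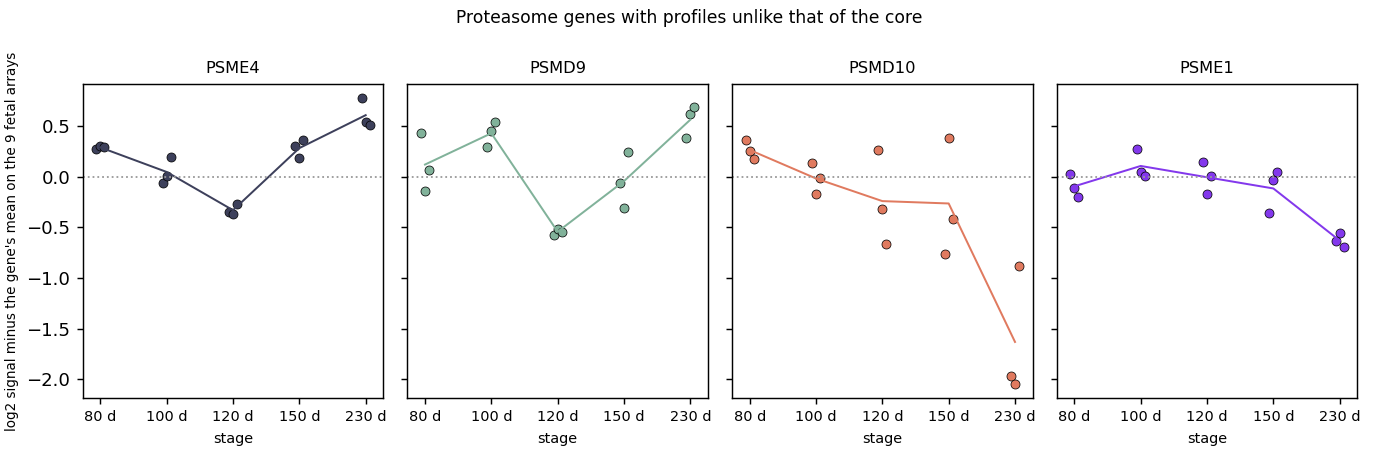
Log2 signal of PSME4, PSMD9, PSMD10 and PSME1 on every array (points, 3 animals per stage), with the gene's mean over the 9 fetal arrays subtracted; lines join the stage means. PSME4 and PSMD9 are lowest at 120 d and highest at 230 d, while PSMD10 and PSME1 are lowest at 230 d.

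Genes that work with the proteasome but are named otherwise were in part higher after birth too. Of 19 partners on a list, 13 were tested, 2 were higher in the newborn than at 120 d, against 4.42% of all probe sets, and 4 in the lamb, against 5.81%, and none was lower. ADRM1, a ubiquitin receptor of the regulatory particle outside the naming rule, went from 286 ± 52.8 (SD, n = 3) to 707 ± 227 at birth (log2 fold change 1.28, adjusted p = 0.0025). UCHL5, the deubiquitylating enzyme that ADRM1 recruits, went from 297 ± 28.3 to 539.6 ± 27.5 (log2 fold change 0.86, adjusted p = 0.005). Both were higher in the lamb as well, with log2 fold changes of 1.04 and 0.77. POMP, the maturation protein of the core, reached 0.76 without passing (adjusted p = 0.017).

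ZFAND5, a protein that activates the proteasome in atrophying muscle, was at 5533 ± 567 at 120 d, did not pass around birth (adjusted p = 0.14) and rose afterwards, from 4387 ± 543 in the newborn to 13839 ± 757 in the lamb (log2 fold change 1.66, adjusted p = 0.00022). RAD23B, which shuttles ubiquitylated proteins to the proteasome, was higher in the lamb than at 120 d (log2 fold change 1.24, adjusted p = 0.00037). The calls of ZFAND5 and RAD23B held in every fit without 1 array. That of ADRM1 at birth was lost without 120 d replicate 1 or 3 (adjusted p up to 0.014), and that of UCHL5 without any 1 of the 120 d or 150 d arrays (up to 0.024). In the lamb the calls of ADRM1 and UCHL5 were lost in 8 and 10 of these 15 fits (adjusted p up to 0.030 and 0.033), among them those without 120 d replicate 1 or 3 or 230 d replicate 3, and UCHL5 turned to -0.13 when arrays were scaled to the hybridisation controls.

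Among 6 tested genes of ubiquitin activation and conjugation, 2 were higher in the newborn and 1 in the lamb than at 120 d. The shares of all probe sets were as above (4.42% and 5.81%). Around birth 5 of the 6 were above 0, with a median log2 fold change of 0.38 and a smallest value of -1.16. From 120 d to 230 d 3 of the 6 were above 0, with a median of -0.06, beside -0.06 for all probe sets. CDC34, a ubiquitin-conjugating enzyme, went from 406 ± 66.3 to 1025 ± 192 (log2 fold change 1.33, adjusted p = 9e-04), and on to 1663 ± 175 in the lamb. UBE2D3, another, had a log2 fold change of 0.77 at birth (adjusted p = 0.0068), a call lost without replicate 2 or 3 of any stage but 230 d (up to 0.032) and with quantile normalization (0.20). Of 5 genes of the VCP complex, which extracts ubiquitylated proteins from larger structures, 1 was called in each of these comparisons, the cofactor UBXN1, higher in the newborn (log2 fold change 1.29, adjusted p = 0.0013) and in the lamb (1.82). VCP itself was at 1.07 and just missed the threshold (adjusted p = 0.01 after rounding).

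Of the regulators of proteasome gene transcription, NFE2L1, NFE2L2 and MAFG were tested and none passed in any comparison. NFE2L1, the factor known to raise proteasome genes when the proteasome is impaired, went from 1881 ± 205 at 120 d to 1548 ± 184 in the newborn (log2 fold change -0.28, adjusted p = 0.5), and NFE2L2, the oxidative stress factor, had -0.01. MAFG, a partner of both, had -0.25.

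Other probe sets exist for 6 of the 40 genes. That of PSMD4 was higher in the lamb than at 120 d (log2 fold change 0.78, adjusted p = 0.0077), where the one used missed at 0.73 (0.015). Those of PSMB2 and PSMC2 had 0.64 and 0.92 at birth, in the direction of the ones used. From 120 d to 230 d, where the PSMC2 probe set used was called, the other had 0.75 and did not pass (adjusted p = 0.024). The second probe sets of PSMD6 and PSMC5 were dim, with signals of at most 21.1 and 67.7, and did not pass the filter. Over all 46 probe sets the counts of calls were 10 at birth and 12 from 120 d to 230 d.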

How the data were processed

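Gene expression in the longissimus dorsi was measured in 15 sheep, 3 per stage, with 1 Affymetrix bovine array per animal. The deposited values are MAS5 signal intensity per probe set on a linear scale, which the authors scaled to a common mean on every array. The MAS5 version was not given in the sources used here. Groups were taken from the sample labels, which do not give the sex of single animals. All 15 value columns were used and 0 were left unused.

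After 112 control probe sets were left out, signals were floored at 0.1 (2 values) and taken to log2. Probe sets that reached 0.25 of the trimmed mean (equal to 50) on 3 or more arrays were kept, 15981 of 24016. Genes were named from the platform annotation, in which 13292 probe sets had 1 symbol, 86 had several and 10638 had none. Stage means were fitted over all 15 arrays with lmFit and eBayes of limma 3.58.1 in R 4.3.3, without a trend, with 10 residual degrees of freedom. The p-values were adjusted by Benjamini-Hochberg within each comparison over all kept probe sets, and a gene was called at an adjusted p under 0.01. The code was tested on simulated data. Stage values are arithmetic means ± SD of the signal, while fold changes come from log2 means. With 3 arrays per stage, the number of arrays limits the precision.

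The genes, role lists and partner lists were chosen with earlier results of these data known. Values on every array are given for the immunoproteasome subunits, PSME1, PSME2 and up to 3 called members of each other role list with the largest change from 120 d to 150 d. Array values of PSMD11, PSMC2 and PSMD10 and the remarks on genes just outside the threshold were added after their values were seen. The alternatives tried were quantile normalization, equal array medians, scaling to hybridisation controls, an offset of 16, no filter, a stricter filter (a signal of 100 on at least 8 arrays), a variance trend with robust estimation, fits to 2 stages only, a replicate block, each array left out, every probe set counted and a threshold of 0.05. Their use for comparisons of stages that are not neighbours, for group medians and for genes outside the naming rule was chosen after seeing the data. Gene neighbours come from RefSeq for sheep assembly ARS-UI_Ramb_v3.0. Figures were drawn with matplotlib 3.10.9.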

Additional observations from a re-analysis of the deposited data

How the results depend on the processing

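As reported, 10 of the 40 proteasome genes passed from 120 d to 150 d, 11 from 120 d to 230 d, 1 from 80 d to 120 d and 17 by the moderated F-statistic, and 0 in the other neighbouring intervals. At an adjusted p under 0.05 the counts were 21, 18, 2 and 28, with 3 from 150 d to 230 d. Of all 15981 probe sets 3588, 4248 and 647 passed at 0.05 in the first 3 of these comparisons. From 150 d to 230 d 1073 did. With array medians set equal 5 passed from 120 d to 230 d and 1 from 150 d to 230 d. Of all probe sets 2127 and 309 did. From 120 d to 150 d 785 of all probe sets were then higher and 657 lower, against 706 and 1083 as reported. Without the filter the counts were 6, 6, 0 and 12, beside 1110, 1512 and 127 of all probe sets in the first 3 comparisons. With the stricter filter 17 passed from 120 d to 150 d, 16 from 120 d to 230 d and 2 from 150 d to 230 d. Of all probe sets 2274, 2639 and 500 passed in these 3 intervals. With a variance trend and robust estimation 18, 16 and 2 of the 40 genes passed in the same intervals, and 2 from 80 d to 120 d. Of all probe sets 2337, 2814, 593 and 427 did. With quantile normalization 7 passed from 120 d to 150 d and 7 from 120 d to 230 d, beside 1493 and 2251 of all probe sets. In fits to the arrays of 2 stages only, limma passed 0 from 120 d to 150 d, 120 d to 230 d and 80 d to 120 d. Of all probe sets 2, 461 and 68 passed. At an unadjusted p under 0.05 there were 20, 21 and 5 members, of which 20, 19 and 2 were higher. The shares of all probe sets higher at that p were 11.3%, 15.8% and 9.49%. Fewer arrays enter these fits.

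With arrays scaled to the hybridisation controls 0 passed from 120 d to 150 d, 2 from 120 d to 230 d, both lower (PSMD10 and PSME1), and 3 by the moderated F-statistic. Over all probe sets 162 were then higher and 3870 lower from 120 d to 150 d, and 147 higher and 5708 lower from 120 d to 230 d. The log2 fold changes from 120 d to 230 d of PSMA6, PSMA7, PSMD6 and UCHL5 turned to -0.10, -0.061, -0.041 and -0.13. The cause of these differences was not tested. Leaving out 1 array at a time gave, in either direction, 4 to 10 calls from 120 d to 150 d, 4 to 12 from 120 d to 230 d, 0 to 1 from 80 d to 120 d and 14 to 17 by the moderated F-statistic, and 0 in the other intervals.

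The stages used different animals, so the replicate numbers were not treated as pairs. Residuals of arrays with the same number correlated at -0.05 to 0.21, over 0.1 in 6 of 30 pairs, and 9 of 15 arrays correlated best with their own number. With the replicate number as a block 8 genes passed from 120 d to 150 d, 10 from 120 d to 230 d, 1 from 80 d to 120 d and 17 by the moderated F-statistic.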
